A study of Mus musculus with 4 samples.

Results

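Peaks of histone H3 acetylated at lysine 27 (H3K27ac) at the ends of long non-coding RNA genes were taken from 2 deposited peak lists. A peak was included when its summit lay within 1 kb of either end of a non-coding RNA gene longer than 200 bp and over 2 kb from both ends of every protein-coding gene. The rule took in 496 of 13130 peaks of the Cre library (3.78%, exact Clopper-Pearson 95% interval 3.46 to 4.12) and 498 of 12873 peaks of the GFP library (3.87%, interval 3.54 to 4.22), 994 of 26003 peaks in all. They are called end peaks here. They lay at 327 genes in Cre and 317 in GFP. Of the 441 genes with an end peak in either list, 434 were annotated as long non-coding RNA (lncRNA). The other 7 genes, which the rule also admits, were 3 of type misc_RNA, the snoRNAs Snora73a and Snora73b, the snRNA Rn7sk and the scRNA Rn7s2. All other genes here are lncRNA genes by annotation.

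The cells were primary chondrocytes, the cells of cartilage, from C57Bl/6 mice, grown outside the animal as micromass cultures (dense spots of cells). The Cre library came from cells given an adenovirus that carries Cre recombinase and is labelled hdac3-knockout. The GFP library came from cells given a GFP control adenovirus and is labelled wild-type. Each group had 1 H3K27ac library, so no value here has a replicate check, no test between the conditions was possible, and a difference between the lists compares 2 libraries. The peak lists hold no measure that checks the loss of Hdac3, the labels do not name the allele, and the effect of Cre itself cannot be told apart from that of the deletion. An input library of each culture was not analysed here. In a pool of cells, fewer marked cells and less of the mark per cell cannot be told apart.

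A long non-coding RNA gene is transcribed, usually by RNA polymerase II, into an RNA that is not translated. Some such RNAs act in the nucleus, some are precursors of microRNAs or small nucleolar RNAs (snoRNAs, which guide the modification of ribosomal RNA), and most have no known role. H3K27ac marks active promoters and enhancers, and HDAC3 is an enzyme that removes acetyl groups from histones. A peak at a gene end therefore reports acetylated chromatin there, and the RNA of the gene was not measured.

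The strength of a peak is given in 2 ways. The deposited fold is the authors' ratio of observed to expected fragment pileup at the summit and ranks peaks within a list. The summit pileup, the number of fragments over the summit, was recovered from the deposited fold and p-value and carries an exact Poisson 95% interval, which covers counting error only. The background pileup was 1.008 fragments in Cre and 0.949 in GFP, so the Cre background was 1.062 times that of GFP after the authors' scaling. Read totals were not given, so this is not a ratio of reads. As a check of the cell type, all 10 chondrocyte marker genes, Col2a1, Acan and Sox9 among them, had a peak in or within 10 kb of the gene in both lists, 172 peaks in Cre and 186 in GFP. Many of these lay at Col9a1 (43 and 51), Sox5 (39 and 45) and Sox6 (34 and 25). Gene length was not allowed for, and the share of all genes with such a peak is not given here. Of 4 osteoblast markers only Sp7 had peaks, 2 and 3. Of 5 leukocyte markers only Cd68 had peaks, 0 in the Cre and 3 in the GFP list. The 4 endothelial, 4 adipocyte and 4 skeletal muscle markers had none.

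Promoter windows are shown for genes at which a strong end peak covered part of the start window. Only part of each window lies under a peak. Each window runs from 250 bases before to 50 bases after a RefSeq start (GRCm38.p6, the coordinates of mm10), 5′ to 3′ along the gene's strand. Capitals mark matches, on either strand, to the CCAAT box as CCAAT, the GC box as GGGCGG, the AP-1 motif as TGANTCA, the CRE motif as TGACGTCA, the E-box motif as CACGTG, the ETS motif as CCGGAAG, the Runx motif as TGTGGT, the Sox motif as AACAAT and the TATA box as TATAAA. The first 5 genes had an end peak in both lists, and 4930481A15Rik had one in the GFP list alone.
1110038B12Rik, chr17:34952419-34952718, minus strand: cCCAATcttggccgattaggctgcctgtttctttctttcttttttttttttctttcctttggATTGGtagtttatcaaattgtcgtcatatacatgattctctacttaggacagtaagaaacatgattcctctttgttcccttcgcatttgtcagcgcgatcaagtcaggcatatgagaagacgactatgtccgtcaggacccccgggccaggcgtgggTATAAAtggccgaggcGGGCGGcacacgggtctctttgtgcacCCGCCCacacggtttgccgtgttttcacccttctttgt
C920006O11Rik, chr9:78175664-78175963, plus strand: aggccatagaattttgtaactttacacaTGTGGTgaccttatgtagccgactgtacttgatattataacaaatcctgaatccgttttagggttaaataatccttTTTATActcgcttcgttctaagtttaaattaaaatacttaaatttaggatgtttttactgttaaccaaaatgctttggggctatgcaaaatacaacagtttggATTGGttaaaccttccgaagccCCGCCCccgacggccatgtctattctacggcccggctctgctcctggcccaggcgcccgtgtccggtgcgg
1700113A16Rik, chr3:88177736-88178035, minus strand: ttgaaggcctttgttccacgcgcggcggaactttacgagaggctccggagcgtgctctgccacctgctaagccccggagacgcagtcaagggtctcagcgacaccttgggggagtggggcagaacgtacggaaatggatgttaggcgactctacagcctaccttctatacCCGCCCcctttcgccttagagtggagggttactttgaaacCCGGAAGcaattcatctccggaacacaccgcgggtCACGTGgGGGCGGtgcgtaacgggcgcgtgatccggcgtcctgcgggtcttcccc
Gm10910, chr9:31280679-31280978, plus strand: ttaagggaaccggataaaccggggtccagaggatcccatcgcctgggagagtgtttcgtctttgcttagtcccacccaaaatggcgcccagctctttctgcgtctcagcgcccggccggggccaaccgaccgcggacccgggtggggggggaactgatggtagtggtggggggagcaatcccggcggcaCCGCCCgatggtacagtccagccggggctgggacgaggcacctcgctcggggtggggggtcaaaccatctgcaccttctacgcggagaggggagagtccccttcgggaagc
Malat1, chr19:5802623-5802922, minus strand: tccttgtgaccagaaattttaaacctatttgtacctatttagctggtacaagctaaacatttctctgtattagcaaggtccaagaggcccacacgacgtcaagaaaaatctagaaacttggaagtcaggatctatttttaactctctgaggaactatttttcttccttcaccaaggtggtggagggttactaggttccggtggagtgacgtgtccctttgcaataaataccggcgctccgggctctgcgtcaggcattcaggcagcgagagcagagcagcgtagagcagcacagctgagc
4930481A15Rik, chr19:5406565-5406864, plus strand: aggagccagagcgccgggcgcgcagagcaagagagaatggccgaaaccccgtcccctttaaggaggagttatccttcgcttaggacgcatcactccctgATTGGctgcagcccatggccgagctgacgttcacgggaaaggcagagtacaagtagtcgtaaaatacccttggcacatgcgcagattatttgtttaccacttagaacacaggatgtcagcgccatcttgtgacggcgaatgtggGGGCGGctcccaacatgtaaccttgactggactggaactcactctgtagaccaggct
The window of 1110038B12Rik held 5 matches, namely 2 CCAAT boxes, 2 GC boxes and 1 TATA box, and its peaks covered 173 bases of it in Cre and 175 in GFP. The window of C920006O11Rik lies mostly in the stretch between it and Rn7sk, and peaks covered 185 and 178 of its bases. That of 1700113A16Rik held 2 GC boxes, an E-box and an ETS match and was covered over 180 and 154 bases. The Malat1 window held no match to the motifs searched and was covered over 123 and 132 bases. Peaks covered 76 and 68 bases of the Gm10910 window, and a GFP peak covered 39 bases of that of 4930481A15Rik. The marked matches in both of these windows lay outside the covered bases.

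Mature microRNAs from RefSeq (GRCm38.p6) are shown for genes with an end peak whose span holds them on the same strand, with the seed (bases 2 to 8) in capitals.
mmu-miR-22-5p (Mir22hg): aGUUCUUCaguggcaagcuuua
mmu-miR-22-3p (Mir22hg): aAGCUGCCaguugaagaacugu
mmu-miR-199a-5p (Dnm3os): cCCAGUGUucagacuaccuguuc
mmu-miR-199a-3p (Dnm3os): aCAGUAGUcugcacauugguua
mmu-miR-214-5p (Dnm3os): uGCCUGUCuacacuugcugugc
mmu-miR-214-3p (Dnm3os): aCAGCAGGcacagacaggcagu
mmu-miR-101a-3p (E130102H24Rik): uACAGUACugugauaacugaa
mmu-let-7b-5p (Lncppara): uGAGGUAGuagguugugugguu
mmu-let-7c-5p (Lncppara): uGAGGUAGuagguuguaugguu
The let-7b and let-7c guide strands share 1 seed. The microRNAs of Mir22hg, Dnm3os and E130102H24Rik have seeds that differ from it and from each other. Mir22hg, Dnm3os and E130102H24Rik had end peaks in both lists and Lncppara in the GFP list alone.

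End peaks were of ordinary strength for their lists. Their median summit pileup was 13 fragments in the Cre list (range 8 to 43) and 12 in the GFP list (range 7 to 41), against 12 over all peaks in both lists. Their median fold was 5.98 and 6.27, against 5.98 and 6.16 over all peaks. The median width was 209 bp in Cre and 202 bp in GFP, and together they covered 127631 and 133150 bp. Among the 1000 peaks of highest fold in each list, 47 of the Cre list and 52 of the GFP list were end peaks. No end peak was among the 9 highest folds of either list, the best rank being 10 in the GFP list (at Gm31365) and 26 in the Cre list (at Gm13421). More than 1 end peak lay at 118 of the 327 genes in the Cre list and at 136 of the 317 in the GFP list, so peaks at 1 gene are not independent of each other.

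Many of the strongest end peaks lay at genes with a model or clone name. Such names are the rule here. They were carried by 12201 of the 12621 genes that could hold an end peak and by 405 of the 441 genes with one. In the Cre list the highest fold was at Gm13421 (chr2:27540426-27546090), 17.4, at a peak whose summit lay 370 bp before the start and 3521 bp from Wdr5, the nearest protein-coding gene. Its summit pileup was 34 fragments in the Cre library (interval 23.5 to 47.5) and 17 in the GFP library (9.90 to 27.2). Cre was the higher library, and the intervals overlapped. The highest fold of the GFP list was at Gm31365 (chr5:142812093-142815992), 21.5, beyond the far end of the gene and inside the protein-coding gene Tnrc18. There the GFP library was the higher one, with 41 fragments (29.4 to 55.6) against 21 (13.0 to 32.1) in the overlapping Cre peak, again with overlapping intervals.

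Gm52500 (chr2:11502010-11506459), inside Pfkfb3, was the only gene at which the intervals of an overlapping pair of peaks lay apart. The Cre peak at chr2:11502730-11503168 had a fold of 14.9 and 29 fragments (19.4 to 41.6), and the GFP peak that it overlapped had a fold of 5.64 and 10 fragments (4.80 to 18.4). A second Cre peak at the gene, with 19 fragments, had no overlapping GFP peak but lay 58 bp from one. With 243 overlapping pairs looked at and no replicate, a single pair with separate intervals is a description of these libraries.

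Several model genes had strong peaks in both libraries. Gm10910 (chr9:31280929-31281725), inside Prdm10, had the most fragments of any end peak, 43 in the Cre library (31.1 to 57.9) and 29 in the GFP library (19.4 to 41.6). Its fold was 10.7 in Cre and 15.1 in GFP, since the fold divides by the authors' expected pileup, which was higher there in Cre. Fold and pileup thus order the libraries differently at this gene. Gm52698, inside Rusc2, had 3 end peaks at its far end in each list, with a highest pileup of 30 in Cre and 24 in GFP. Gm51817, inside Ppm1h, had 26 and 28 fragments, also at the far end. Gm38882 had 31 and 24 fragments, A630077J23Rik 25 and 20, Gm35239 19 and 26, and Gm52815 22 and 11. By fold the GFP peaks of Gm52815 (4.19, percentile 3.06 of the list) and Gm38882 (at most 5.29, percentile 25.6) were weak. 1700113A16Rik had 25 and 17 fragments and 4930445N18Rik 21 and 24. None of these 9 genes had intervals that lay apart.

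**Figure D1:**
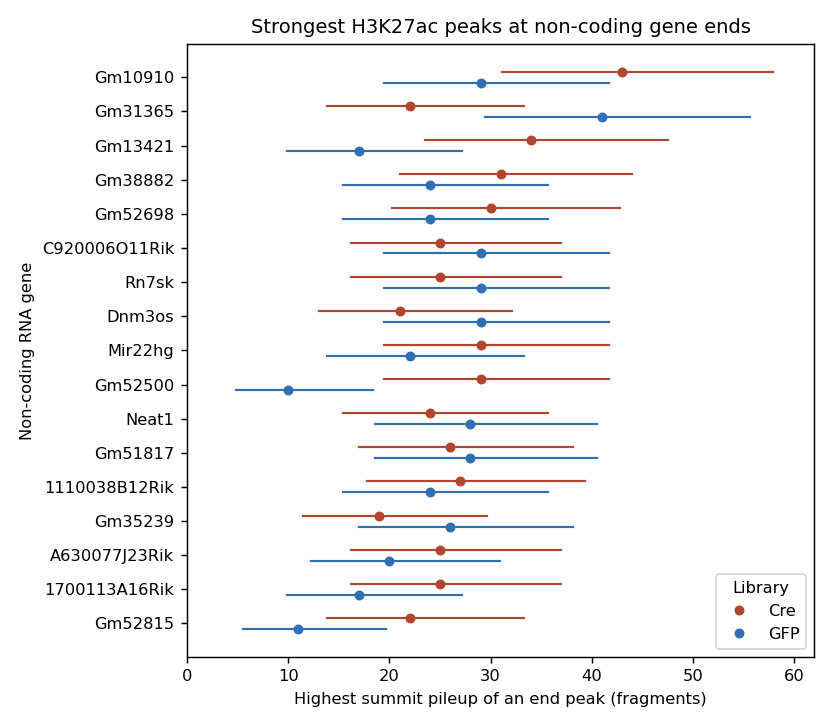
The highest summit pileup of an end peak (fragments, horizontal axis) at the 17 genes among the 10 of highest deposited fold in either list, Cre in red and GFP in blue, with exact Poisson 95% intervals as bars. Gm10910 reached 43 fragments in Cre and Gm31365 41 in GFP, and Gm52500 is the gene where the bars lie apart, 29 against 10.

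Malat1 and Neat1, neighbouring genes on chromosome 19, had peaks in both libraries. Malat1 (chr19:5795690-5802672), an abundant RNA of nuclear speckles, had 2 Cre and 3 GFP end peaks at its start, and the highest pileup was 27 fragments in both libraries. The peak 5′ of the start had its summit at -321 bp in the Cre list and at -313 bp in the GFP list. Neat1 (chr19:5824708-5845480), the scaffold of paraspeckles, had 2 Cre peaks over 1357 bp and 3 GFP peaks over 2994 bp, with up to 24 fragments in the Cre library (15.4 to 35.7) and 28 in the GFP library (18.6 to 40.5). The peaks at both genes were thus of like height. The summed widths at Neat1 count each end peak in full and leave out peaks with a summit over 1 kb from a gene end. They therefore do not compare the same stretch in the 2 lists.

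Strong end peaks also lay at genes of small RNAs made by RNA polymerase III. Rn7sk (chr9:78175302-78175633), whose RNA holds back the elongation factor P-TEFb, and C920006O11Rik (chr9:78175914-78178882) shared the peak between them. It had 25 fragments in the Cre library (16.2 to 36.9) and 29 in the GFP library (19.4 to 41.6). Rn7s2, a gene of the signal recognition particle RNA, had 16 and 21 fragments. Both small RNAs have near-identical copies elsewhere in the genome, so reads there can be shared between copies and these values are uncertain.

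Of the 52 non-coding genes that could hold an end peak and whose span holds a microRNA on the same strand, 4 had an end peak in both lists, 1 in the Cre list alone and 1 in the GFP list alone. The share with any was 11.5% (4.35 to 23.4). It was 3.37% (3.06 to 3.71) of 12329 lncRNA genes with neither a same-strand microRNA nor a snoRNA. Genes without a known strand could not be matched to a microRNA, so the 12329 can include some that hold one. Dnm3os (chr1:162217623-162225550), which runs antisense inside Dnm3 and is the precursor of miR-199a and miR-214, was the strongest in the GFP list. A GFP peak of 2737 bp, chr1:162217708-162220444, covered both mature miR-199a sequences and reached 29 fragments (19.4 to 41.6). The Cre list had 4 shorter end peaks there, with up to 21 fragments (13.0 to 32.1). The Cre peak at chr1:162217726-162217898, with 13 fragments, covered all of miR-199a-5p and part of miR-199a-3p. The end peaks at Dnm3os summed to 1542 bp in Cre and 2979 bp in GFP, and the pileup intervals overlapped. Peaks with a summit over 1 kb from a gene end are not in these sums, which therefore do not compare the same stretch.

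Mir22hg (chr11:75461539-75466690), the host of miR-22, had 29 fragments in the Cre library (19.4 to 41.6) and 22 in the GFP library (13.8 to 33.3) at a peak 5′ of its start. Mir99ahg (chr16:77329328-77558428) had a single Cre peak of 2730 bp with 24 fragments and 2 GFP peaks over 1273 bp with up to 28. No same-strand microRNA was matched to the span of Mir99ahg, so it is not among the genes counted above. E130102H24Rik, the span of miR-101a, had 15 and 13 fragments. Its Cre peak and the nearest GFP end peak lay 14 bp apart, and the Cre peak overlapped another GFP peak that is not an end peak. At Snhg20, whose span holds miR-6516, the Cre peak (17 fragments) lay before the start and the GFP peak (9 fragments) 671 bp away within the gene. A gene called in both lists thus need not carry the same peak. The genes called in 1 list had weak peaks: Lncppara, the let-7b and let-7c span, 9 fragments in GFP, and 2900076A07Rik, the miR-1839 span, 10 in Cre.

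Genes whose span holds a snoRNA were called in similar proportion, though here the strand was not checked, as it was for microRNAs. Of 104 genes whose span holds a snoRNA, 12 had an end peak (11.5%, 6.11 to 19.3), 9 of them in both lists. The highest pileups were 14 fragments in Cre and 15 in GFP at Snhg7, 8 and 11 at Zfas1, 15 and 16 at Snhg8, and 22 and 23 at Snhg12. They were 11 and 23 at Snhg3, 15 and 11 at Dancr, 14 and 20 at Snhg5, 15 and 23 at Snhg16, and 27 and 24 at 1110038B12Rik. GFP was higher at 7 of the 9 and Cre at 2, with a median log2 ratio of Cre to GFP of -0.10, and every pair of intervals overlapped. Over all 203 genes with end peaks in both lists, GFP was higher at 99, Cre at 84 and neither at 20, with a median log2 ratio of 0. Snhg17 was called in Cre alone (10 fragments), and 2410006H16Rik and Snhg4 in GFP alone (12 fragments at both).

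A list of 78 named long non-coding and related RNA genes was followed as a group. An end peak was present in both lists at 20 of them, in the GFP list alone at 3 (Jpx, Lncppara and Snhg4), in the Cre list alone at 1 (Snhg17) and in neither at 47. The background over the 12621 non-coding genes that could hold an end peak was 1.61% in both lists, 0.982% in Cre alone and 0.903% in GFP alone. Genes of this list were chosen for being known. Another 4 genes could not be called because a protein-coding gene end lay near every end (Gas5, Snhg9, Rmrp and Rpph1), and 3 names were not matched in the gene table. Xist, H19, Meg3, Hotair, Kcnq1ot1, Tug1 and Miat were among those with no end peak in either list. A gene was kept as able to hold an end peak if any position near either end met the rule. Peaks at a start close to a protein-coding gene end were still left out, so having no end peak does not mean having no peak. Airn, the imprinted antisense RNA of Igf2r, had 9 fragments in Cre and 13 in GFP, Pvt1 10 and 8, Trp53cor1 15 and 16, and Carmn 12 and 13. Oip5os1 had 12 and 21, and its strongest GFP peak, before the start, had no Cre peak closer than 592 bp.

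Genes were also split by their names. Of 420 genes with a name of their own, 36 had an end peak (8.57%, 6.08 to 11.7), 27 of them in both lists. Of 12201 genes with a model or clone name, 405 had one (3.32%, 3.01 to 3.65), 176 in both lists.

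In the comparison of the 2 libraries, 253 of the 496 Cre end peaks had no overlapping GFP peak, where 59.3% of all Cre peaks had none. Likewise 261 of the 498 GFP end peaks had no overlapping Cre peak, where 58.6% of all GFP peaks had none. Put the other way, 243 Cre end peaks (49.0%, 44.5 to 53.5) and 237 GFP end peaks (47.6%, 43.1 to 52.1) shared at least 1 bp with a peak of the other library. The share was 51.1% (49.4 to 52.9) of Cre peaks and 48.7% (47.0 to 50.3) of GFP peaks within 1 kb of a protein-coding gene end. It was 36.5% (35.5 to 37.5) and 38.3% (37.3 to 39.3) of the remaining peaks. The intervals of end peaks overlapped those of peaks at protein-coding gene ends and lay above those of the remaining peaks. They take peaks as independent, which neighbouring peaks are not.

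Sharing rose with peak strength in both libraries. In the Cre list 26.5% of end peaks with 7 to 9 fragments were shared (16.5 to 38.6), 42.4% with 10 to 14 (36.7 to 48.2), 69.9% with 15 to 19 (59.5 to 79.0), 86.1% with 20 to 29 (70.5 to 95.3) and 4 of 4 with 30 or more. In the GFP list the shares were 25.6% (16.6 to 36.4), 42.1% (36.2 to 48.1), 65.6% (55.2 to 75), 85.4% (70.8 to 94.4) and 1 of 1. In the class of 10 to 14 fragments, which holds most end peaks, the remaining peaks were shared at 31.9% (30.7 to 33.1) in the Cre list and 34.7% (33.5 to 35.9) in the GFP list, below the intervals of the end peaks. In the classes above and below it the intervals of end peaks and remaining peaks overlapped. When all peaks that are not end peaks were weighted to the end peaks' classes of pileup, their share was 42.1% in Cre and 43.6% in GFP. Peaks at protein-coding gene ends weighted in the same way gave 48.4% and 46.4%.

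**Figure D2:**
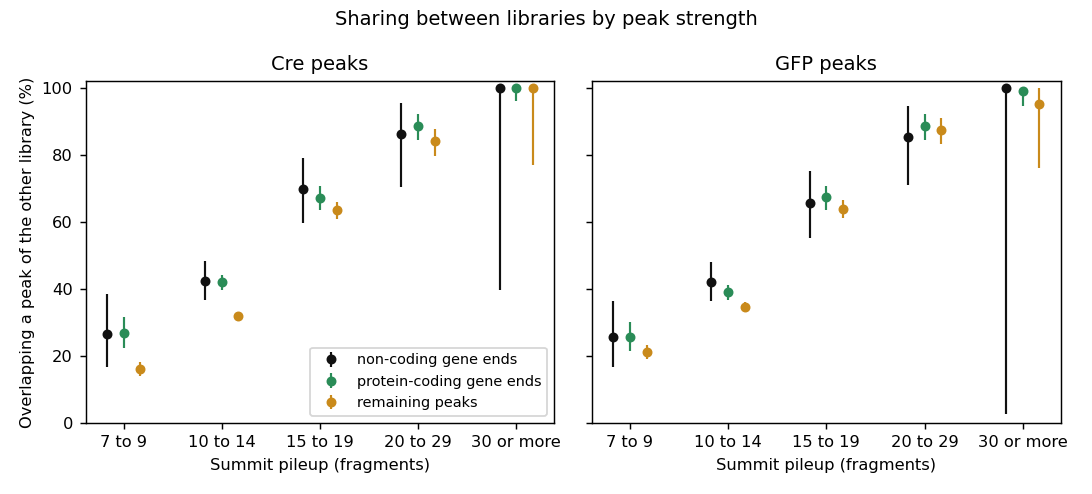
The share of peaks that overlap a peak of the other library (%, vertical axis) by class of summit pileup (fragments, horizontal axis), for end peaks (black), peaks at protein-coding gene ends (green) and remaining peaks (orange), with exact 95% intervals as bars. The black points rise from 26.5% to 86.1% in Cre and from 25.6% to 85.4% in GFP over the first 4 classes, and the last class holds 4 and 1 end peaks.

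Peaks without an overlap were often close to one. A peak of the other library lay within 1 kb of 71.8% of Cre and 75.5% of GFP end peaks. With that looser distance, 140 Cre end peaks stood alone, where 35.2% of all Cre peaks did, and 122 GFP end peaks, where 32.6% of all GFP peaks did. Unshared end peaks were weaker, with a median of 11 fragments in both lists against 14 for shared ones. They were narrower, 185 against 246 bp in the Cre list and 180 against 267 bp in the GFP list. No unshared end peak had more than 22 fragments in the Cre list or 24 in the GFP list. An absent peak can lie just under the caller's threshold, and at these pileups that could not be told apart from loss of the mark.

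Where peaks overlapped, the libraries had like heights. Over 243 pairs, each a Cre end peak and the overlapping GFP peak of nearest summit, the median log2 ratio of pileups was 0 (quartiles -0.29 and 0.26). Cre was higher in 98 pairs, GFP in 114, and 31 were equal. A wide GFP peak counts again for each Cre peak paired with it, as at Dnm3os and Gm16150, so the pairs are not independent. Pairs were not counted from the GFP side. Over all 5345 overlapping Cre peaks the median was also 0, with Cre higher in 2407 and GFP in 2337. No scaling for the background ratio of 1.062 was applied, and the pairs were chosen for a peak in both lists, which leaves out genes with a peak in 1 list alone.

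**Figure D3:**
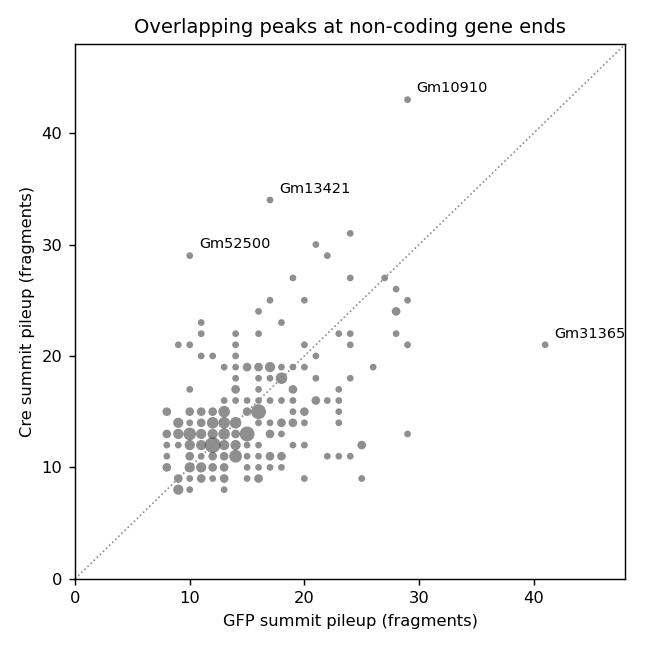
Summit pileup (fragments) of 243 overlapping pairs of peaks at non-coding gene ends, GFP on the horizontal and Cre on the vertical axis, with larger dots for several pairs at the same values and a dotted line of equal height. The points lie on both sides of the line, with 98 above it and 114 below, and Gm52500 at 10 in GFP and 29 in Cre is the pair with separate intervals.

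Counted by gene, 203 genes had an end peak in both lists, 124 in the Cre list alone and 114 in the GFP list alone, of 12621 that could hold one. Protein-coding genes, counted with a peak within 1 kb of either end, had 1896 of 21900 in both lists (8.66%), 928 in Cre alone (4.24%) and 1043 in GFP alone (4.76%). At 96 of the 124 and 90 of the 114 genes, every end peak lay over 1 kb from any peak of the other library. The median of a gene's highest pileup was 12 fragments for Cre alone, 11 for GFP alone and 14 for both. Genes called in 1 list thus came from the weaker end peaks in both libraries.

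Genes called in Cre alone reached at most 22 fragments. Those described next are the strongest of the 96 whose end peaks all lay over 1 kb from any GFP peak. 1700030L22Rik (chr12:53298724-53317139), inside Npas3, had 2 Cre peaks at its far end, with a fold of 10.8 and 21 fragments (13.0 to 32.1), and the nearest GFP peak was 1938 bp away. Gm34114 had 2 Cre peaks with up to 18 fragments, 11726 bp from the nearest GFP peak at the stronger one. Its nearest protein-coding gene, at 90506 bp, was Dcn, which encodes decorin, a proteoglycan of connective tissue. Platr22 had 2 Cre peaks at its start with up to 18 fragments, and A630001O12Rik and D130051D11Rik had 16 each.

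Among the 90 genes of the same kind in GFP, Gm35658 (chr9:63093358-63108233) had a peak at each end, with up to 20 fragments (12.2 to 30.9) and the nearest Cre peak 23999 bp away. 4930481A15Rik, whose promoter is printed above, had 19 fragments (11.4 to 29.7) at a peak 127 bp within the gene. Gm52834, inside Stard13, had 17 fragments, Gm35762, inside Cc2d2a, had 16, and Gm34513 had 14. The libraries were thus alike in the height that genes called in 1 list reached, and no replicate shows which of these calls would recur.

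End peaks lay at both the start and the far end of non-coding genes. The strand was known for 400 Cre and 396 GFP end peaks. Of these, 286 (71.5%, 66.8 to 75.9) and 282 (71.2%, 66.5 to 75.6) were nearer the start than the far end. Among peaks at protein-coding gene ends with a known strand, the share was 90.5% (89.4 to 91.6) of 2771 in the Cre list and 91.0% (89.9 to 92.0) of 2873 in the GFP list. The intervals of the 2 kinds lay apart in both libraries. These shares, and those within 300 bp given next, come from unlike rules. End peaks of non-coding genes had to lie over 2 kb from protein-coding gene ends, which leaves out some of their starts. Peaks at protein-coding gene ends had no such bound. Within 300 bp of an annotated start lay 20.3% of Cre and 20.7% of GFP end peaks (intervals 16.4 to 24.5 and 16.8 to 25), against 30.2% and 28.4% at protein-coding genes. Sharing was 51.4% at starts and 50.9% at far ends in the Cre list and 50% and 47.4% in the GFP list, with intervals that overlapped widely. Among end peaks whose gene has no strand in the promoter table it was 39.6% and 41.2%.

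**Figure D4:**
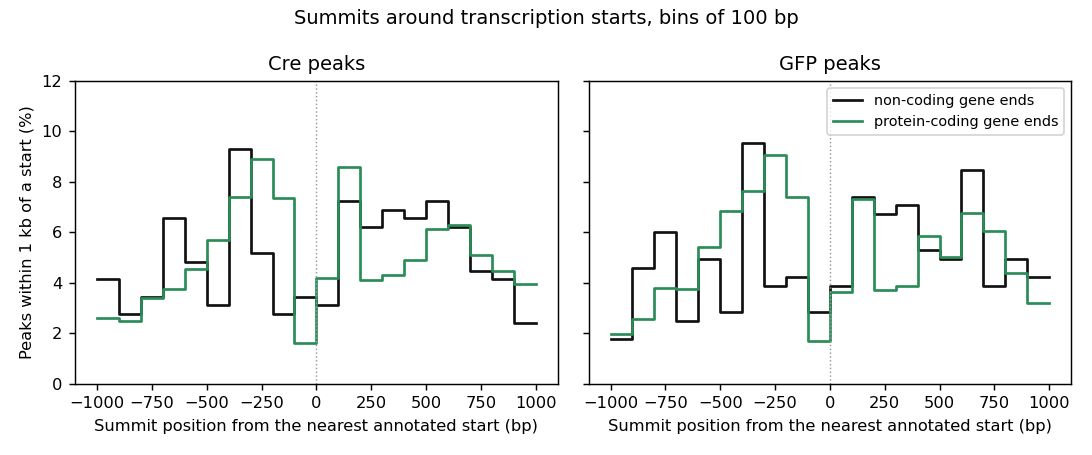
Share of peaks with a summit within 1 kb of an annotated start (%, vertical axis) per 100 bp of distance from that start (bp, horizontal axis, negative before the start), for end peaks (black, 290 in Cre and 283 in GFP) and peaks at protein-coding gene ends (green). The green line has its minimum in the 100 bp before the start, and both lines have their maximum between 200 and 400 bp before it.

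The summit of many end peaks lay within a protein-coding gene, 227 in Cre and 226 in GFP, whether or not that gene spans the whole non-coding one. Of these, 52.9% (46.1 to 59.5) and 49.6% (42.9 to 56.3) were shared, and outside such genes 45.7% (39.7 to 51.9) and 46.0% (39.9 to 52.1). The gene table holds no exons, so exonic and intronic positions were not separated. Of the 10 chondrocyte marker genes, 3 were the protein-coding gene nearest to an end peak (Sox6, Sox5 and Col2a1), and the other 7 (Acan, Sox9, Matn3, Col9a1, Col11a1, Comp and Hapln1) were not. Sox6os lies inside Sox6, which encodes a transcription factor needed for cartilage formation, and was picked out after its values were seen. It had 5 Cre and 4 GFP end peaks, of which 4 and 4 were shared, with up to 16 and 17 fragments. Gm46536 at Col2a1, the gene of the main cartilage collagen, had 1 GFP peak of 9 fragments, and Gm38531 inside Sox5 had 1 Cre peak of 11, both unshared. Such a peak cannot be assigned to the non-coding gene rather than to the gene around it.

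CpG content was compared over the promoter windows of genes called in each way. The observed-to-expected CpG ratio of the outermost start window had a median of 0.325 over 163 genes called in both lists, 0.287 over 95 called in Cre alone, 0.354 over 94 called in GFP alone and 0.242 over 8997 called in neither. The share of windows above 0.6 was 33.1%, 21.1%, 25.5% and 13.2% in the same order. It was 47.6% of 21263 protein-coding windows, whose median was 0.567. The start window was used also for genes whose end peaks lay at the far end alone, and 22.5% of 80 such genes were above 0.6. With an end peak at the start, the share was 35.8% of 120 genes (both lists) and 23.1% of 143 (1 list). Median GC content was 52.0% for genes called in both lists and 48.3% for genes called in neither. Of the 441 genes with an end peak, 352 were in the promoter table.

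**Figure D5:**
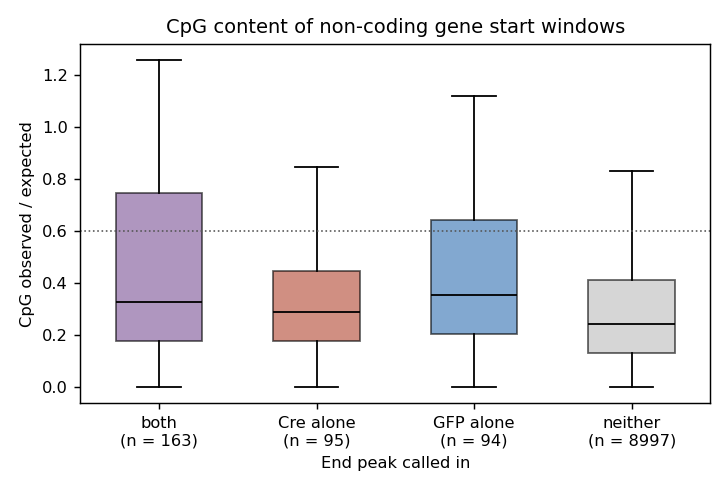
Observed-to-expected CpG ratio (vertical axis) of the start window of non-coding genes by the list in which an end peak was called, as boxes of median and quartiles with whiskers to the farthest value within 1.5 times the box, and a dotted line at 0.6. The box of genes called in both lists reaches from 0.176 to 0.747 and that of genes called in neither from 0.129 to 0.410.

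The motifs searched in the printed windows were counted over all promoter windows of the same length, on both strands. No motif in the list contains another, though matches may overlap. TATAAA was in 23.9% of 117 lncRNA windows that share at least 1 base with an end peak, 15.5% of 11588 lncRNA windows and 13.6% of all 32851 windows. A match can lie outside the peak, and each start of a gene counts as its own window. GGGCGG was in 22.2%, 16.3% and 35.7%, CACGTG in 9.40%, 5.89% and 7.15%, and CCGGAAG in 9.40%, 3.89% and 8.86%. CCAAT was in 26.5%, 36.0% and 37.4%, TGANTCA in 11.1%, 9.31% and 7.81%, and TGTGGT in 20.5%, 20.05% and 16.8%. AACAAT was in 8.55%, 13.8% and 10.7%, and TGACGTCA in 0.855%, 0.975% and 1.79%. These counts are descriptions with no test, and a match is not a bound site.

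At the border of the rule, the Cre end peak farthest from a non-coding gene end was at B430319G15Rik, 999 bp away with a fold of 8.47, and the nearest one left out was at Gm33475, 1004 bp away with a fold of 5.98. In the GFP list these were at Gm51799, 999 bp and 5.13, and at C030005K06Rik, 1004 bp and 5.64. The end peaks closest to a protein-coding gene end were at Gm17801 in both lists, 2040 bp and a fold of 10.9 in Cre and 2044 bp and 10.3 in GFP. The closest ones left out lay 1976 bp from such an end at 1700003D09Rik in Cre (fold 4.98) and 1978 bp at 1700012D01Rik in GFP (fold 6.67). The bounds fell within a continuous range of distances.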

How the data were processed

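Peaks were called by the authors per library, 1 deposited list for each of 2 H3K27ac libraries. Tools listed in the submitters' processing notes are BWA, SICER, Picard and bcl2fastq 1.8.4, with build mm10. The files themselves are named for MACS2 and have its columns, which SICER output does not, and the pileups here assume the MACS2 formulas. Which caller made them is not stated, and the caller's version, settings, control and total reads were not given in the sources used here. The deposited score was the integer part of the −log10 q-value times 10. The deposited fold is a ratio of observed to expected pileup at the summit, and the deposited −log10 p-values and q-values refer to that summit.

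Fold and p-value were solved for a Poisson pileup, which was whole within 0.001 for all 13130 and 12873 peaks. The solver was tested on simulated data. Summits were set against RefSeq gene ends of GRCm38.p6 with Python 3.11.15, pandas 2.3.3 and scipy 1.17.1. That table has no strand, so strands came from the RefSeq promoter windows, which match 352 of 441 genes. Overlap meant at least 1 bp. Intervals (exact Clopper-Pearson or Poisson, 95%) cover counting error only. Named genes were the 10 of highest fold per list, the 5 strongest called in 1 list and over 1 kb from any peak of the other, the 10 shared genes of highest mean fold percentile, and those of the known list with an end peak. The genes, lists and rules were chosen with earlier results of these data known. Alternatives were a stricter q-value, other distances and overlaps, and a top list of peaks.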

Additional observations from a re-analysis of the deposited data

How the results depend on the processing

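Of 78 alternative values, 47 stayed within 1 interval or within 1.5 times the value given, and 31 moved. The share of Cre peaks that are end peaks (3.78%) was 4.44% at −log10 q of 10 or more, 4.42% in the top 5000 by score, 6.31% within 2 kb of a non-coding end, 2.05% within 500 bp, 2.05% outside protein-coding genes, and 4.43% and 3.21% with protein-coding ends over 1 and over 5 kb away. For GFP (3.87%) these were 4.90%, 4.66%, 6.35%, 2.14%, 2.11%, 4.56% and 3.21%. The shared part of Cre end peaks (49.0%) was 24.4% with an overlap over 50% of both peaks and 71.8% with a peak within 1 kb. That of GFP end peaks (47.6%) was 24.9% and 75.5%, and 41.5% with both lists at the stricter q-value and 42.9% in the top 5000. With only the end peaks so filtered, an alternative chosen after seeing the data, it was 81.9% for Cre and 76.8% for GFP. Genes called in both lists (203) numbered 35 at the stricter q-value, 120 within 500 bp, 118 outside protein-coding genes and 103 in the top 5000. Genes called in Cre alone (124) numbered 29 at the stricter q-value, 77 outside protein-coding genes and 70 in the top 5000, and in GFP alone (114) 40 at the stricter q-value and 63 outside protein-coding genes. Stricter settings take in fewer peaks by construction. No paired analysis was possible because each group had 1 library and no test was made, and no library could be left out. Depth limits single peaks: most had under 15 fragments.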
